A study of Mus musculus with 8 samples.

Results

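The 39 genes described here encode the signalling machinery of the T cell receptor, and their RNA was followed in OT-I CD8+ T cells from mouse melanomas. OT-I is a transgenic receptor that recognises an ovalbumin peptide, and the tumors grew from B16-OVA, a melanoma line made to express ovalbumin. Naive Zbtb32-/- and wild-type (WT) OT-I cells entered the same B6 mice 1 day ahead of the tumor cells, which were placed under the skin, and were sorted out of the tumor infiltrate 30 days later. Zbtb32 encodes a zinc finger transcription factor. A pair of groups, KO and WT, held all OT-I cells sorted (total OT-I cells below), and another pair held the Tim-3+ subset that the labels call Ttex, terminally exhausted cells. All 4 groups therefore share the transgenic receptor, the tumor line and the day of sorting, and they differ in genotype and in the Tim-3 gate. Each group has 2 libraries of polyadenylated RNA. The labels tie no library to a separate animal, so every p-value measures the spread between these libraries, which may be technical. The age and sex of the mice and the part of Zbtb32 that was deleted are not given in the sources used here.

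The members were chosen by name: 39 of the 39 symbols were found once in each table, among 17495 genes listed for total OT-I cells and 13126 rows listed for Ttex cells. They comprise 6 genes of the receptor complex and the CD8 coreceptor, 4 proximal kinases, 7 adaptors and effectors around LAT and SLP-76, 3 genes of the Ras and protein kinase C branch, 10 negative regulators, 3 NFAT factors and 6 genes of the BCL10-MALT1 and NF-kappaB branch. When the receptor binds its peptide, the kinase Lck phosphorylates the CD3 and zeta chains, ZAP-70 docks there and phosphorylates the adaptors LAT and SLP-76, and phospholipase C-gamma1 makes the second messengers that start calcium, Ras and protein kinase C signalling. Calcium acts on NFAT through the phosphatase calcineurin, and protein kinase C-theta acts on NF-kappaB through MALT1 and BCL10. In tumors the receptor of an exhausted T cell is engaged again and again, and the phosphatases, ubiquitin ligases and diacylglycerol kinases among the negative regulators are known to dampen its signal.

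Between 18540958 and 21024417 reads per library could be recovered from the deposited values of total OT-I cells, and between 51648567 and 59191074 from those of Ttex cells. Values are FPKM (read fragments scaled for exon length and library depth) in total OT-I cells and normalized counts, not corrected for length, in Ttex cells. The tables were normalized separately, so levels are compared only within a table. Genotypes were compared as KO-labelled over WT-labelled libraries with limma on log2(value + 1), and a gene was called at a Benjamini-Hochberg adjusted p under 0.05 over all tested genes. Zbtb32 RNA was at 94.9 and 73.0 FPKM in the KO-labelled libraries of total OT-I cells against 79.8 and 87.1 FPKM in the WT-labelled libraries. In Ttex cells its normalized counts were 6822 and 5715 against 3976 and 3951, so its gene-level RNA gives no check of the labels. Cd8a stood above 300 FPKM in every library of total OT-I cells. The Tim-3 gene Havcr2, the marker of the gate, overlapped between genotypes there (148 to 183 FPKM) but not in Ttex cells, where KO-labelled libraries held 10828 and 10642 normalized counts against 15862 and 15935 in those of WT (log2 fold change -0.57, limma adjusted p = 0.182). In the libraries of total OT-I cells the median of all 9574 tested genes lay at a log2 fold change of -0.24 by limma. By edgeR on the recovered reads the median over its tested genes was 0.03. Limma tested each gene against 0, not against that shift. For each member called there, the value with each library centred on its median tested gene is therefore also given. Genes that mark other cells also went with the genotype labels. The summed level of 19 macrophage, monocyte and dendritic cell markers, some of which (Ly6c2, Ccr2) T cells also express, was 481 and 415 FPKM in KO-labelled against 1023 and 942 FPKM in WT-labelled libraries. Of the 16 that were tested 14 were called lower, where 30.4% of all tested genes were. Among those called, Csf1r, Adgre1 and Fcgr1 reached the minimum mean of 1 FPKM for testing through their WT-labelled libraries alone. Low signals of CD4 and regulatory T cells split the same way, with Cd4 at 0.312 and 0.395 against 1.26 and 1.54 FPKM. Foxp3 was at 0.458 and 0.226 against 1.90 and 1.83 FPKM and was called lower (-1.10, limma adjusted p = 1.09e-13). It reached the minimum mean of 1 FPKM for testing through its WT-labelled libraries alone. Cd4 and Foxp3 were both higher in KO-labelled libraries of Ttex cells, without being called. In Ttex cells the 18 listed genes of the macrophage list summed to 178451 and 137156 against 110595 and 87251 normalized counts, in the opposite direction. The summed melanoma and red blood cell markers were higher in KO-labelled libraries of both tables, at 19.1 and 16.7 against 10.5 and 13.8 FPKM and at 22.3 and 15.4 against 10.3 and 8.17 FPKM in total OT-I cells. Of the 4 melanoma markers tested there, 3 were higher, where 2.45% of all tested genes were. Mlana was lower (1.94 and 1.75 against 2.84 and 3.12 FPKM, -0.48, limma adjusted p = 0.00725). None of these markers was at 0 in all 4 libraries of either table. Their part in the members' differences was not tested.

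RefSeq promoter windows (GRCm38.p6) were found for 33 of the 39 members, and 250 bases before the annotated start were searched on both strands. Cd8b1, Malt1, Sh2d2a, Nfatc1, Nfkb1 and Cd6 had no window, so their promoters were not searched. Shown are the members whose window holds the kappaB consensus, since NF-kappaB is the end point of 1 branch and all 3 of them (Nfkbia, Rel and Bcl10) belong to it, and the members with the TCF and LEF letters CTTTGAT, since Fyn had the largest difference of all members in total OT-I cells. Capitals mark the match, on either strand, and no match overlaps another motif that was searched. The windows of Fyn and Bcl10 lie inside the genes as annotated by GENCODE M21, which begin at 39368855 and 145922804. They precede an internal start and not the outermost one.

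Nfkbia (chr12:55492648-55492897, minus strand): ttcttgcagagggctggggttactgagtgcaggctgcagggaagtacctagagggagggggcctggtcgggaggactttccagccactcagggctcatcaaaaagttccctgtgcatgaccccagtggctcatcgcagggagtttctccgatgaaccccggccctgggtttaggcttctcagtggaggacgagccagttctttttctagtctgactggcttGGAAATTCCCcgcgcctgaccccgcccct

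Rel (chr11:23770970-23771219, minus strand): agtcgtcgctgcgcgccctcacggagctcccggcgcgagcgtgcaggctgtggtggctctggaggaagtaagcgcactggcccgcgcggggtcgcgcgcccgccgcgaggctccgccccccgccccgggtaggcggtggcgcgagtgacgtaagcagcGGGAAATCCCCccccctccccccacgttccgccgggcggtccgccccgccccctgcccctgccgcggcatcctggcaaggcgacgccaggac

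Bcl10 (chr3:145924012-145924261, plus strand): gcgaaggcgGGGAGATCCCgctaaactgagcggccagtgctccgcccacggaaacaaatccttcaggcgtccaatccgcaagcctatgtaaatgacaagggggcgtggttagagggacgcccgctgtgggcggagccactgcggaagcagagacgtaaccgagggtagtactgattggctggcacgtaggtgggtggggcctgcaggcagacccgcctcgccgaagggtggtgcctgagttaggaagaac

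Fyn (chr10:39369549-39369798, plus strand): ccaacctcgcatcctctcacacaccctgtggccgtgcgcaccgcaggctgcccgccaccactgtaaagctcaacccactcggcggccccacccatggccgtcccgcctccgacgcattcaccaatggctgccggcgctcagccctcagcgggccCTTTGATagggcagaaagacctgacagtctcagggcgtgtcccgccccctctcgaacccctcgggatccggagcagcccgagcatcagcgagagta

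Cd3d (chr9:44981536-44981785, plus strand): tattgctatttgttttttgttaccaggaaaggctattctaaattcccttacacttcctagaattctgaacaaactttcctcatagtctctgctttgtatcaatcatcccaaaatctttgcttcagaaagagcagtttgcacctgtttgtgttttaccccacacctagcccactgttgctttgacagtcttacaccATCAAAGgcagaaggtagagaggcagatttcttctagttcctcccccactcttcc

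The kappaB consensus stood in 3 of the 47 member windows (6.38%) and in 7.25% of all 32851 windows, and the TCF and LEF letters in 2 of 47 and in 3.20% of all windows. A further 4 motifs were searched: AP-1 (TGANTCA) and ETS (CCGGAAGT) matched 0 member windows, against 6.75% and 2.88% of all windows, CRE (TGACGTCA) matched that of Zap70 against 1.55%, and RUNX (TGTGGTT) matched those of Lck and Txk against 4.40%. A match is a description of letters, not of a bound site.

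In total OT-I cells 12 of 38 tested members, or 31.6%, were lower in KO-labelled libraries and 0 were higher. Of all 9574 tested genes 30.4% were lower and 2.45% higher, so by this fit the share of members called lower was close to that of all genes. Their median log2 fold change was -0.32, against -0.24 over all tested genes. In sorted bulk cells, fewer cells of a kind and less RNA per cell cannot be told apart. Sos1 was not tested because its mean of 0.868 FPKM lay under the minimum of 1 FPKM. The members called were Cd3d, Cd3g, Fyn, Plcg1, Grap2, Csk, Dgkz, Nfatc2, Nfatc3, Nfkb1, Rel and Malt1. Both KO-labelled libraries lay below both WT-labelled libraries in 20 of the 38 members, where 56.6% of tested genes did, and above them in 3 (Vav1, Cd6 and Dgka), where 9.43% did. With each library centred on its median tested gene, 4 of 38 members (10.5%) were lower (Fyn, Nfatc3, Nfkb1 and Malt1), where 11.9% of genes were. With centring 3 members (7.89%) were higher (Vav1 at 0.58, Cd6 at 0.62 and Dgka at 0.60), where 10.7% of genes were. EdgeR on the recovered reads called 10 of 39 members (25.6%) lower and 0 higher, where 15.8% of genes were lower and 11.9% higher. The authors' deposited table calls 11 of 39 members lower and 0 higher at an adjusted p under 0.05, with 15.4% and 5.03% of its genes. By limma the count of 12 fell to 6 of 35 with a minimum mean of 5 FPKM. It also fell in each of the 4 fits with 1 library left out. The share of all genes called was not counted for these settings.

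**Figure D1:**
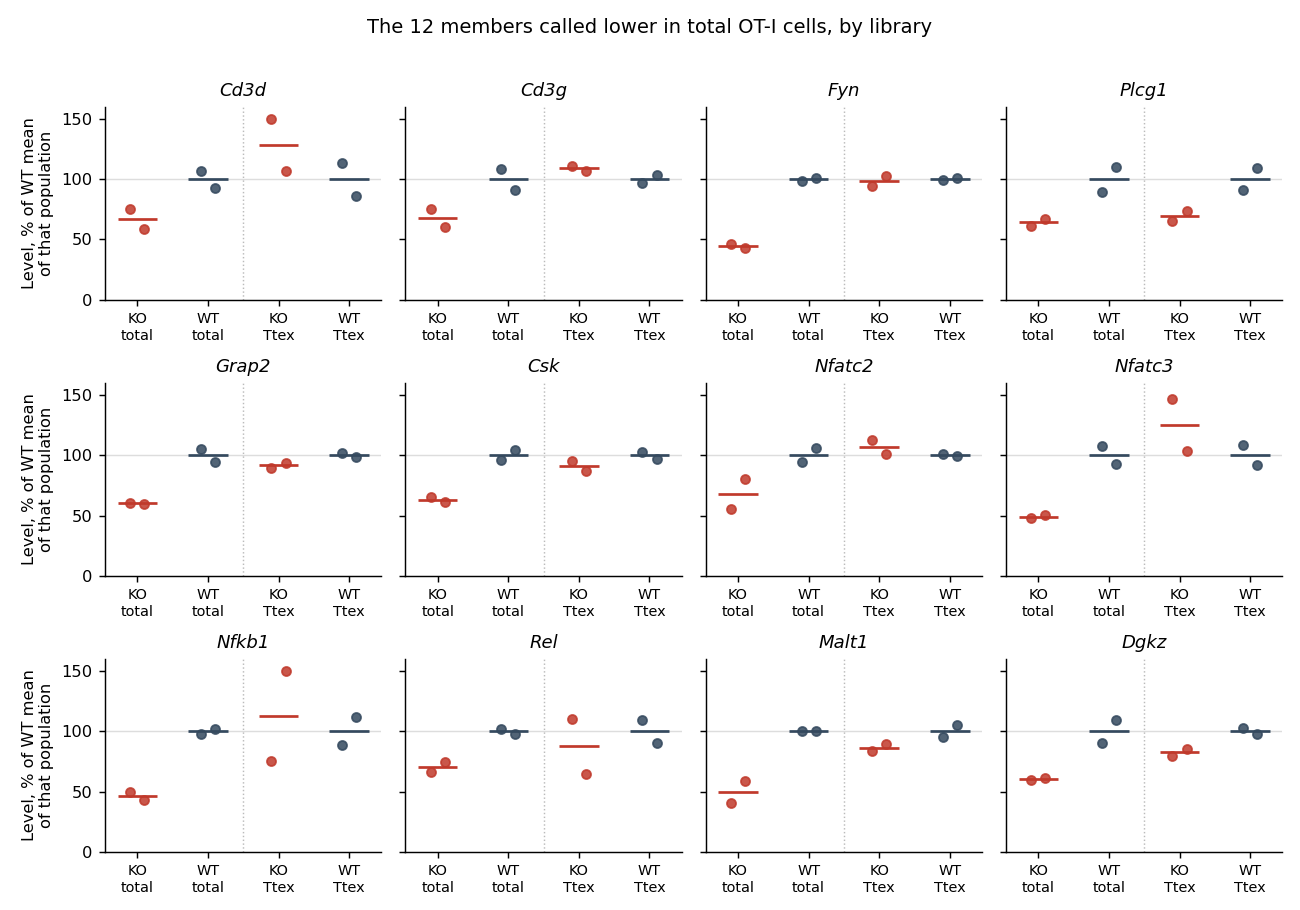
Level of the 12 members called lower in total OT-I cells, in each library, as a percentage of the WT-labelled mean of the same population (vertical axis), for KO-labelled (red) and WT-labelled (dark) libraries of total OT-I cells (left of each panel) and Ttex cells (right). Points are libraries and bars are means of 2; the KO-labelled mean of Fyn was at 44.4% in total OT-I cells and at 98.5% in Ttex cells.

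The CD3 chains, which carry the receptor's signal into the cell, were among the most abundant members. Cd3d (CD3-delta) was at 332 and 257 FPKM in KO-labelled against 470 and 406 FPKM in WT-labelled libraries of total OT-I cells (log2 fold change -0.58, SE 0.24, limma adjusted p = 0.0436). Cd3g (CD3-gamma) was at 311 and 247 against 449 and 376 FPKM (-0.57, SE 0.24, adjusted p = 0.0495). Both genes fell, with no overlap between the genotypes, though neither was called with centring (-0.33 and -0.32). Cd3e (CD3-epsilon), which lies next to them on chromosome 9, was at 92.2 and 105 against 143 and 131 FPKM (-0.47, SE 0.23, adjusted p = 0.0996), and it did not pass. Its libraries were lower in KO-labelled cells too, without reaching the threshold. Cd247, the zeta chain that recruits ZAP-70, was at 76.8 and 63.7 against 68.4 and 69.5 FPKM (0.02), with overlapping groups. Ratios of related members, a choice made after the values were seen, compare genes within a library. Relative to Cd3e within the same library, Cd247 stood at 0.833 and 0.604 in KO-labelled and 0.480 and 0.529 in WT-labelled libraries. The zeta to epsilon ratio was thus higher in both KO-labelled libraries. The smallest p that an exact permutation test of 2 against 2 libraries can give is 0.333, for this and every ratio below. The coreceptor Cd8a, which binds MHC class I and brings Lck to the receptor, was at 357 and 303 against 418 and 400 FPKM (-0.31, SE 0.24, adjusted p = 0.317). Cd8b1, its beta chain, had the highest level per length of all members and stood at 452 and 388 against 624 and 557 FPKM (-0.49, SE 0.24, adjusted p = 0.0947). Neither coreceptor gene passed, although their genotypes did not overlap.

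In Ttex cells none of these 6 genes was called. Cd3e had 74881 and 74697 normalized counts in KO-labelled against 76255 and 75567 in WT-labelled libraries (-0.02, SE 0.15, limma adjusted p = 0.960). Cd3g was at 44253 and 42510 against 38470 and 40967 (0.13, SE 0.13, adjusted p = 0.675). Cd3d was at 53212 and 37734 against 40192 and 30563 (0.35, SE 0.22, adjusted p = 0.483), the largest positive value among the members in Ttex cells, with overlapping libraries. The KO-labelled libraries of Cd3g stood above those of WT, the reverse of their order in total OT-I cells. Cd8a was at 69206 and 67936 against 73901 and 70792 (-0.08, SE 0.15, adjusted p = 0.831), and Cd247 and Cd8b1 had log2 fold changes of -0.03 and 0.08.

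Among the proximal kinases, Fyn stood apart from Lck in total OT-I cells. Fyn, a Src family kinase that phosphorylates the same receptor motifs as Lck, was at 11.5 and 10.8 FPKM in KO-labelled and 24.9 and 25.5 FPKM in WT-labelled libraries. The WT-labelled mean was 2.25 times the KO-labelled mean, 25.2 ± 0.446 against 11.2 ± 0.52 FPKM (SD, n = 2), a log2 fold change of -1.11 (SE 0.20, limma adjusted p = 3.96e-07, edgeR adjusted p = 7.74e-05). This was the largest difference of all members. With centring it was -0.86 (adjusted p = 0.000223). Lck, the main kinase that starts receptor signalling, was at 566 and 454 against 453 and 514 FPKM (0.07, SE 0.24, adjusted p = 0.844), and its groups overlapped. Zap70 was at 248 and 202 against 192 and 227 FPKM (0.10, SE 0.23, adjusted p = 0.770), also with overlap. Txk, a Tec family kinase, had a log2 fold change of -0.04. Within each library the level of Fyn over that of Lck was 0.0204 and 0.0238 in KO-labelled and 0.0549 and 0.0496 in WT-labelled cells. This ratio does not depend on the scaling of the library, and it was lower in both KO-labelled libraries.

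In Ttex cells Fyn had 17811 and 19260 normalized counts in KO-labelled against 18644 and 18974 in WT-labelled libraries (-0.02, SE 0.12, limma adjusted p = 0.945). The KO-labelled values lay on either side of the WT-labelled ones. Lck was at 56360 and 56113 against 60112 and 60209 (-0.10, SE 0.14, adjusted p = 0.766), and Zap70 at 30772 and 23891 against 29286 and 25652 (-0.02, SE 0.17, adjusted p = 0.973). Neither was called. Per kilobase, Fyn over Lck was 0.212 and 0.230 in KO-labelled and 0.208 and 0.212 in WT-labelled Ttex libraries, a gap far smaller than in total OT-I cells.

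**Figure D2:**
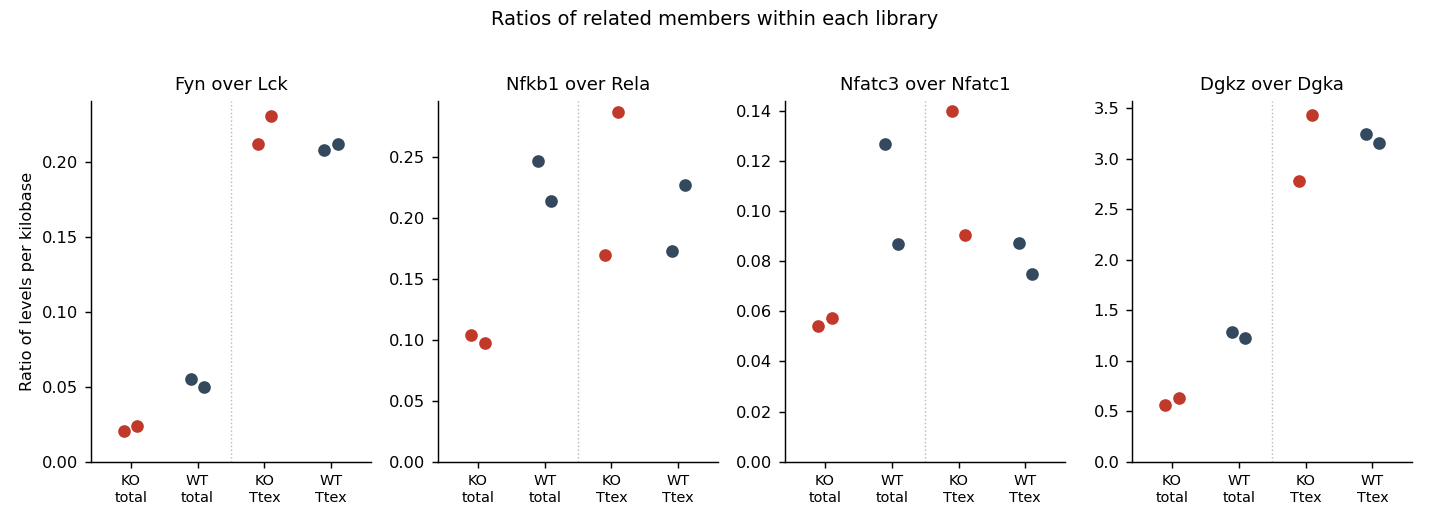
Ratios of 4 pairs of related members within each library (vertical axis, levels per kilobase of merged exons, each panel from 0) for KO-labelled (red) and WT-labelled (dark) libraries of total OT-I cells and Ttex cells. In total OT-I cells the KO-labelled points of all 4 pairs lie below the WT-labelled points; the pairs were chosen after the values were seen.

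The adaptors and effectors around LAT divided in total OT-I cells. Plcg1, the phospholipase C-gamma1 that hydrolyses PIP2, was at 6.80 and 7.37 FPKM in KO-labelled against 9.89 and 12.2 FPKM in WT-labelled libraries (-0.57, SE 0.18, limma adjusted p = 0.0084, edgeR adjusted p = 0.0259). Grap2, which encodes Gads, the adaptor that joins SLP-76 to LAT, was at 9.86 and 9.74 against 17.2 and 15.4 FPKM (-0.68, SE 0.19, adjusted p = 0.00236). Both fell, without overlap, and with centring they stood at -0.32 and -0.43 and were not called. Lat itself, the membrane scaffold, was at 107 and 83.3 against 124 and 117 FPKM (-0.35, SE 0.23, adjusted p = 0.242). Lcp2, the gene of SLP-76, was at 101 and 90.0 against 93.6 and 102 FPKM (-0.03), with overlap. Neither scaffold passed, nor did Sh2d2a (-0.14), whose protein binds Lck, or Themis (-0.36), which sets signal strength in thymocytes. Vav1, an exchange factor for Rac, went the other way, at 69.7 and 65.1 against 45.0 and 63.1 FPKM (0.33, SE 0.22, adjusted p = 0.248). It was not called on the deposited scale but was called higher with centring (0.58, adjusted p = 0.029), and its WT-labelled libraries differed more from each other than its KO-labelled ones.

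In Ttex cells Plcg1 had the largest difference of all 39 members. It had 6113 and 6838 normalized counts in KO-labelled against 8461 and 10155 in WT-labelled libraries (-0.52, SE 0.14, limma adjusted p = 0.255). The genotypes did not overlap, and the log2 fold change was close to that in total OT-I cells (-0.57), but the gene was not called. Vav1 was next, at 5983 and 8052 against 8951 and 9446 (-0.41, SE 0.16, adjusted p = 0.341), so that its KO-labelled libraries were below those of WT here and above them in total OT-I cells. Lat was at 34623 and 31264 against 32242 and 31958 (0.04, SE 0.13, adjusted p = 0.920), with overlap. Grap2 had a log2 fold change of -0.12 and Lcp2 of -0.34 (adjusted p = 0.629 and 0.397).

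In the Ras and protein kinase C branch no member was called by limma in either population. Prkcq, protein kinase C-theta, was at 22.2 and 16.3 FPKM in KO-labelled against 13.7 and 19.8 FPKM in WT-labelled libraries of total OT-I cells (0.20), with overlap. Rasgrp1, the exchange factor that diacylglycerol recruits to activate Ras, varied most between replicates, at 12.0 and 22.8 against 17.6 and 25.1 FPKM (-0.33). Sos1, the other Ras exchange factor, was the least abundant member at 0.550 and 0.617 against 1.08 and 1.23 FPKM. Without overlap, it was lower by edgeR, which tested it on recovered reads (-0.89, edgeR adjusted p = 0.00335), and in the authors' deposited table (-0.92, adjusted p = 0.00562). In Ttex cells Sos1 was at 658 and 414 against 459 and 494 normalized counts (0.13, limma adjusted p = 0.851), with overlapping groups.

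Of the 10 negative regulators, 2 fell in total OT-I cells and 8 were not called. That share of 20% lay under the 30.4% called lower among genes at large. Csk, the kinase that holds Lck and Fyn inactive by phosphorylating their tail, was at 26.1 and 24.3 FPKM in KO-labelled against 38.2 and 41.6 FPKM in WT-labelled libraries (-0.64, SE 0.21, limma adjusted p = 0.0099). Dgkz, diacylglycerol kinase zeta, was at 17.3 and 17.7 against 26.2 and 31.6 FPKM (-0.69, SE 0.20, adjusted p = 0.0038). Both were without overlap, and neither was called with centring (-0.39 and -0.44). Dgka, diacylglycerol kinase alpha, removes the same second messenger and went the other way, at 30.9 and 28.1 against 20.4 and 25.8 FPKM (0.35, SE 0.21, adjusted p = 0.189; with centring 0.60, adjusted p = 0.0138). Within each library Dgkz over Dgka was 0.559 and 0.628 in KO-labelled and 1.28 and 1.23 in WT-labelled cells. WT-labelled libraries thus held more Dgkz than Dgka per length, and KO-labelled libraries less. Cd6, a scavenger receptor family protein at the T cell surface, was at 67.2 and 60.2 against 41.1 and 58.0 FPKM (0.38, adjusted p = 0.181; with centring 0.62, adjusted p = 0.0185), and its neighbour Cd5 on chromosome 19 was at -0.06. The phosphatase genes Ptpn22 and Ptpn6, the ubiquitin ligase gene Cblb and the Sts genes Ubash3a and Ubash3b lay between -0.30 and 0.14 and were not called.

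Ttex cells had 0 of these 10 regulators called, and 7 of the 10 had both KO-labelled libraries below both WT-labelled libraries, where 28.2% of tested genes did. Csk had 21208 and 19212 normalized counts against 22878 and 21503 (-0.14, SE 0.13, limma adjusted p = 0.632), and Dgkz at 25176 and 27188 against 32569 and 30935 (-0.28, SE 0.13, adjusted p = 0.379). Dgka was at 6874 and 6018 against 7636 and 7437 (-0.23, SE 0.12, adjusted p = 0.435), below WT where it had stood above WT in total OT-I cells. The Dgkz to Dgka ratio, at 2.78 and 3.43 in KO-labelled and 3.24 and 3.16 in WT-labelled Ttex libraries, overlapped. Cblb, a ligase that limits activation without costimulation, was at 11722 and 13670 against 15276 and 16784 (-0.34, SE 0.13, adjusted p = 0.334), and Cd6 at 27432 and 28386 against 34297 and 34278 (-0.30, SE 0.12, adjusted p = 0.353). Neither passed, and in both the genotypes did not overlap.

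**Figure D3:**
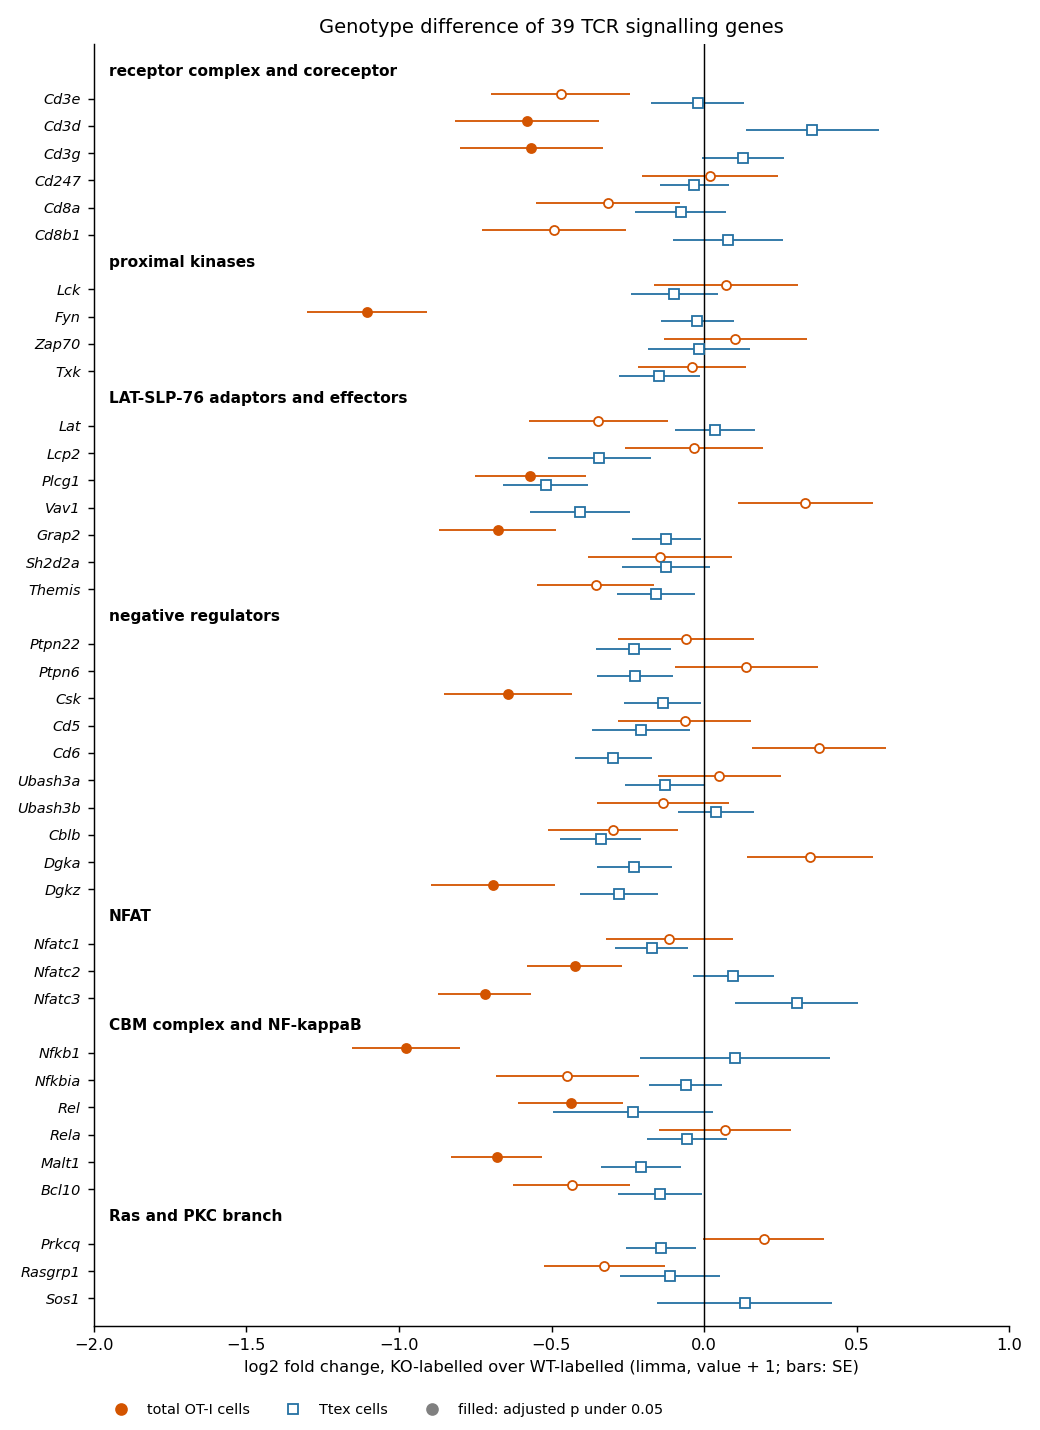
Log2 fold change of KO-labelled over WT-labelled libraries (horizontal axis, limma on value + 1, bars show the SE) for the 39 members by role, in total OT-I cells (orange circles) and Ttex cells (blue squares). Filled symbols are members called at an adjusted p under 0.05: 12 in total OT-I cells, all lower, and 0 in Ttex cells.

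The NFAT genes encode factors that calcineurin releases into the nucleus. In total OT-I cells Nfatc3 was at 1.59 and 1.68 FPKM in KO-labelled against 3.60 and 3.09 FPKM in WT-labelled libraries (-0.72, SE 0.15, limma adjusted p = 2.9e-05, edgeR adjusted p = 0.000742). Nfatc2, which takes part in T cell exhaustion, was at 1.84 and 2.68 against 3.14 and 3.53 FPKM (-0.42, SE 0.16, adjusted p = 0.0231, edgeR adjusted p = 0.0833). Both fell by limma, but with centring the call held for Nfatc3 (-0.47, adjusted p = 0.02) and not for Nfatc2 (-0.18). The most abundant of the 3, Nfatc1, whose gene NFAT itself induces after activation, was at 29.3 and 29.2 against 28.4 and 35.5 FPKM (-0.11, adjusted p = 0.714), with overlap. Nfatc3 over Nfatc1 was 0.0543 and 0.0575 in KO-labelled and 0.127 and 0.087 in WT-labelled libraries, lower in both KO-labelled ones. In Ttex cells none was called. Nfatc3 had 3127 and 2205 normalized counts against 2315 and 1957 (0.30, SE 0.20, limma adjusted p = 0.509), and Nfatc2 at 2829 and 2545 against 2535 and 2488 (0.10, SE 0.13, adjusted p = 0.755). The KO-labelled libraries of Nfatc2 stood above those of WT here, and those of Nfatc3 overlapped with WT. Nfatc1 had a log2 fold change of -0.17.

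In the NF-kappaB branch limma called 3 of 6 members lower in total OT-I cells, a share of 50% beside 30.4% for genes at large. With centring the branch kept 2 such calls (33.3%, beside 11.9% for genes at large). Nfkb1, the gene of p105 and p50, was at 4.99 and 4.33 FPKM in KO-labelled and 9.91 and 10.3 FPKM in WT-labelled libraries. Its WT-labelled mean was 2.17 times the KO-labelled mean, 10.1 ± 0.306 against 4.66 ± 0.472 FPKM (SD, n = 2). On the log2 scale the difference was -0.98 (SE 0.18, limma adjusted p = 5.66e-07, edgeR adjusted p = 0.000134) and of -0.73 with centring (adjusted p = 0.00052). Its partner Rela, the p65 subunit, was not called, at 48.0 and 44.6 against 40.2 and 48.3 FPKM (0.07), with overlap. Nfkb1 over Rela was 0.104 and 0.0971 in KO-labelled and 0.246 and 0.214 in WT-labelled libraries. Malt1, the paracaspase that links protein kinase C-theta to NF-kappaB, was at 1.15 and 1.67 against 2.84 and 2.84 FPKM (-0.68, SE 0.15, adjusted p = 5.93e-05, edgeR adjusted p = 0.00172; with centring -0.43, adjusted p = 0.0363). Rel, the c-Rel subunit that T cells induce on activation, was at 4.68 and 5.30 against 7.23 and 6.96 FPKM (-0.44, SE 0.17, adjusted p = 0.037, edgeR adjusted p = 0.0842), and it was not called by edgeR or with centring (-0.19). Bcl10, the partner of Malt1, was at 11.8 and 11.2 against 16.3 and 15.5 FPKM (-0.43, adjusted p = 0.0668). Nfkbia, the NF-kappaB target gene that encodes the inhibitor IkappaB-alpha, was at 348 and 283 against 449 and 410 FPKM (-0.45, adjusted p = 0.133). Neither Bcl10 nor Nfkbia passed, although their genotypes did not overlap.

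In Ttex cells Nfkb1 had 6389 and 12724 normalized counts in KO-labelled against 7474 and 9447 in WT-labelled libraries (0.10, SE 0.31, limma adjusted p = 0.902). KO-labelled replicate 2 was the highest and replicate 1 the lowest of the 4, so the WT-labelled values lay between them. Malt1 was at 2913 and 3132 against 3319 and 3665 (-0.21, SE 0.13, adjusted p = 0.488), without overlap, and Rel at 2465 and 1452 against 2443 and 2027 (-0.23, SE 0.26, adjusted p = 0.693), with overlap. Nfkbia was at 24149 and 24561 against 25479 and 25306, a log2 fold change of -0.06. Bcl10 had a log2 fold change of -0.14. Limma called 0 of the 39 members in Ttex cells, so the 3 whose window holds the kappaB consensus cannot be set apart by calls there. Of the pair with the TCF and LEF letters Fyn stood at -0.02 and Cd3d at 0.35 in Ttex cells. A link between these letters and the genotype difference was not tested.

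How far the calls in total OT-I cells depended on the scaling and on single libraries differed by gene. Fyn, Nfatc3, Nfkb1 and Malt1 were called lower by limma, with centring, by edgeR and in the authors' deposited table, and they kept the call in each of 4 fits with 1 library left out. With upper-quartile scaling Malt1 lost the call (-0.51, limma adjusted p = 0.0547) and the other 3 kept it. The fits with 1 library left out were run without centring. Nfatc3 and Malt1, at means of 2.49 and 2.12 FPKM, were not tested with a minimum mean of 5 FPKM. With 1 library left out the adjusted p of the 4 reached at most 0.000472, 0.00421, 0.000784 and 0.0332. Grap2 lost the call without WT replicate 1 (adjusted p = 0.0811), and Dgkz without WT replicate 2 (0.136). Plcg1 lost it without KO replicate 1 (0.066) and without WT replicate 2 (0.166). Cd3d, Cd3g and Csk lost it without KO replicate 2 (0.275, 0.268 and 0.0534), WT replicate 1 (0.525, 0.563 and 0.102) and WT replicate 2 (0.259, 0.247 and 0.15). Nfatc2 kept it without KO replicate 2 alone (0.0169, against 0.0518 to 0.406), and Rel lost it in all 4 such fits (0.0824 to 0.207). Limma pooled the spread fully over genes of like level in total OT-I cells, so each SE there is not the gene's own spread.

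**Figure D4:**
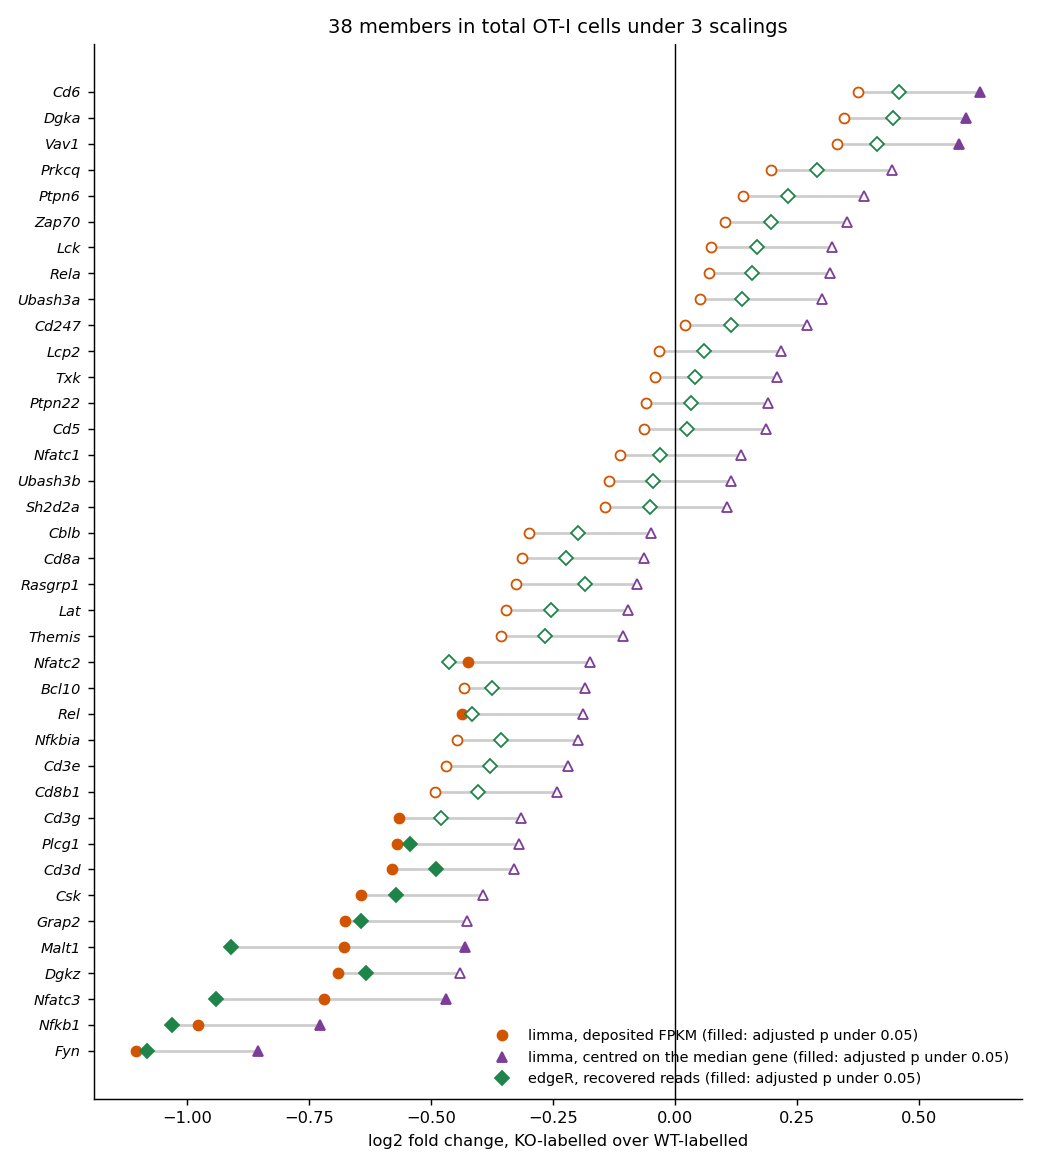
Log2 fold change of KO-labelled over WT-labelled libraries (horizontal axis) of the 38 tested members in total OT-I cells, by limma on the deposited FPKM (circles), by limma with each library centred on its median tested gene (triangles) and by edgeR on recovered reads (diamonds); filled symbols are called at an adjusted p under 0.05. Fyn, Nfkb1, Nfatc3 and Malt1 are filled under all 3, and Cd6, Dgka and Vav1 are filled, to the right of 0, with centring alone.

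The called members were mostly of low level. Their median was 11.1 FPKM (2.12 to 366) over the 12 called and 58.6 FPKM (7.17 to 505) over the 26 tested and not called. In this fit the SE was larger at high level, 0.15 for Malt1 and 0.24 for Cd8b1. A log2 fold change of a given size was thus called more readily at low level. Nfatc2 at -0.42 was called and Cd8b1 at -0.49 was not. The levels of called genes at large are not given here. The 6 most abundant members per length were Cd8b1, Lck, Nfkbia, Cd8a, Cd3d and Cd3g, of which the CD3 genes alone were called. Merged exon length was a median of 6.87 kb (1.81 to 18.0) for called members and 4.84 kb (1.48 to 11.7) for the others. Under 2 kb, 49.1% of all tested genes were lower in total OT-I cells, with a median log2 fold change of -0.47. There 1 of 3 members was called lower (Cd3d), and Cd8b1 and Nfkbia were not called. In Ttex cells the median under 2 kb was 0.20 over all tested genes and 0.08 over these 3 members. Of the 8 tested members of at least 10 kb, 4 fell (Nfatc2, Nfatc3, Nfkb1 and Malt1), where 37.2% of all tested genes of that length were lower. The other 4 of that class, Txk (-0.04), Ubash3a (0.05), Cblb (-0.30) and Themis (-0.36), were not called. Fyn, at 4.36 kb, lies in the 4 to 6 kb class, where 24.2% of all genes were lower and 1 of 9 members was.

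In Ttex cells 0 of the 39 members were called by limma, edgeR or DESeq2. These fits did not pair same-numbered libraries, and calls from a fit that did are given at the end. Of all genes limma called 0.00796% of 12559 lower and 0.0159% higher, edgeR 0.00795% lower and 0.119% higher, and DESeq2 0.55% lower and 2.56% higher. At an unadjusted p under 0.05 limma found 3 members, edgeR 1 and DESeq2 1, and by limma 14.2% of all genes were under that value. The members' median log2 fold change was -0.13, against -0.06 over all tested genes. Both KO-labelled libraries were below both WT-labelled libraries in 21 of 39 members, where 28.2% of genes were, and above them in 2 (Cd3g and Nfatc2), where 19.9% were. 9 members (Cd3e, Cd8a, Plcg1, Grap2, Csk, Nfkbia, Malt1, Dgkz and Themis) had KO-labelled below WT-labelled libraries in both populations, among 38 tested in both, and 15.0% of genes tested in both did so. Vav1, Cd6 and Dgka had KO-labelled above WT-labelled libraries in total OT-I cells and below them in Ttex cells. Cd3g and Nfatc2 had the reverse arrangement. The share of all genes with opposite arrangements was not counted, so these members cannot be set against it.

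The difference of the genotype effect between the populations was tested with edgeR in a joint fit of the recovered reads of all 8 libraries. The value of each population given beside a difference comes from a separate edgeR fit of that population. The gap between the values therefore departs from the difference, for Plcg1 also in sign. Over all tested genes the median difference was 0.09. The difference was called for 3 of 39 members, 2 higher and 1 lower in Ttex cells, where 6.89% of 11225 genes were higher and 2.01% lower. Fyn had a difference of 1.02 on the log2 scale (SE 0.19, edgeR adjusted p = 0.0106), from -1.08 in total OT-I cells to 0.03 in Ttex cells. Nfatc3 had one of 1.22 (SE 0.28, edgeR adjusted p = 0.0239), from -0.94 to 0.37. Dgka had one of -0.71 (SE 0.20, edgeR adjusted p = 0.0487), from 0.45 to -0.18. Next in order and not called were Cd6 at -0.80 (0.0507), Vav1 at -0.85 (0.0521) and Nfkb1 at 1.16 (0.0576). Plcg1 stood at -0.54 and -0.48, a difference of -0.02 with an SE of 0.22, and Lck, Zap70 and Lat had differences of -0.31, -0.24 and 0.25, all with an edgeR adjusted p of at least 0.388. These calls rested on few libraries. Of the 8 fits that left out 1 library, Fyn was called in 5, Nfatc3 in 3 and Dgka in 2. Fyn missed the threshold without WT replicate 1 of total OT-I cells (0.0534) and without WT-labelled Ttex replicate 1 (0.0677) or 2 (0.075). The populations also differ in table, depth and marker content, so what the gate and the library preparation each add cannot be told apart.

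**Figure D5:**
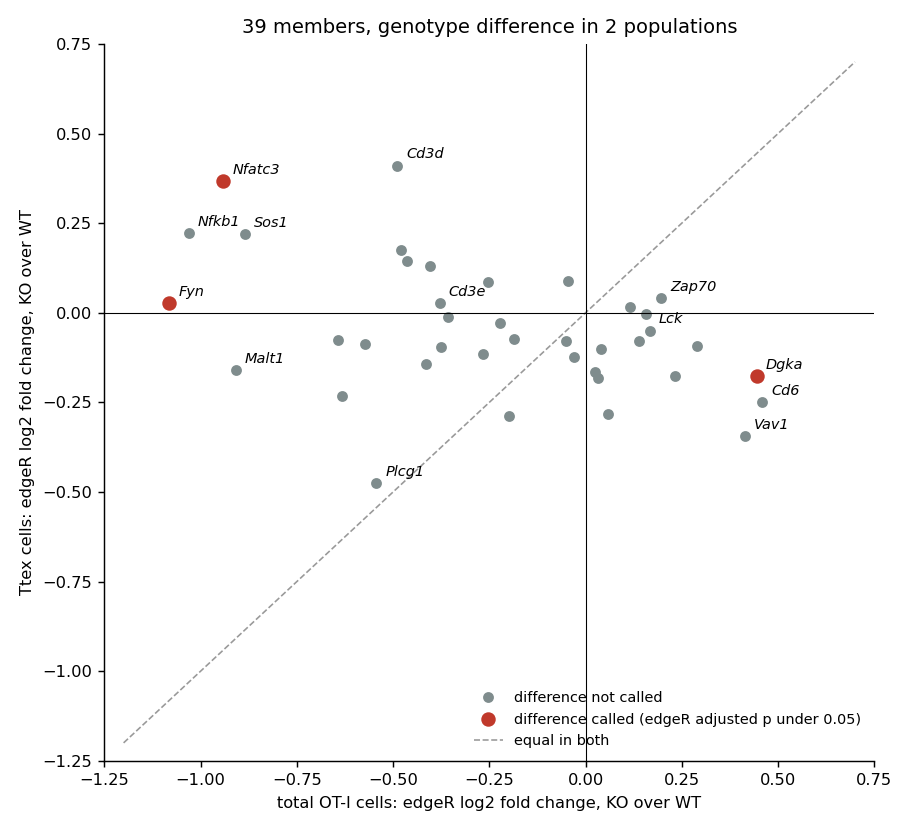
EdgeR log2 fold change of KO-labelled over WT-labelled libraries for the 39 members, in total OT-I cells (horizontal axis) and in Ttex cells (vertical axis). Red points are the 3 members whose difference between populations was called (Fyn, Nfatc3 and Dgka), and the dashed line marks equal values, near which Plcg1 lies.

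Other genes of the same pathway, a list of 78 that holds none of the members, were counted the same way. In total OT-I cells 25 of the 71 tested (35.2%) were lower and 0 higher, where 30.4% and 2.45% of all genes were, with a median log2 fold change of -0.30. With centring 16 (22.5%) were lower and 8 (11.3%) higher, where 11.9% and 10.7% of all genes were. EdgeR called 22 of 78 (28.2%) lower and 2 (2.56%) higher, where 15.8% and 11.9% were. The smallest adjusted p belonged to Ppp3cb, a catalytic subunit of calcineurin, at 1.63 and 1.74 FPKM in KO-labelled against 6.87 and 6.53 FPKM in WT-labelled libraries (-1.52, limma adjusted p = 1.24e-18). Hras, a Ras protein, followed at 0.574 and 0.473 against 2.49 and 2.06 FPKM (-1.10). It reached the minimum mean of 1 FPKM through its WT-labelled libraries alone. Then came Grb2, the adaptor that carries Sos, at 6.95 and 6.08 against 20.3 and 19.0 FPKM (-1.46). Orai1, the pore of the calcium channel that feeds calcineurin and NFAT, was at 2.40 and 2.81 against 7.33 and 7.46 FPKM (-1.22). All 4 were without overlap, and with centring they stood between -1.27 and -0.85 and were still called. The other catalytic subunits Ppp3ca (-0.71) and Ppp3cc (-0.81) and the kinase gene Mapk3 (-0.95) were lower too, and were picked after their values were seen. In Ttex cells limma and edgeR called 0 of the 78 (13 and 7 at an unadjusted p under 0.05), and DESeq2 called 1 lower, Tnfaip3, the gene of the NF-kappaB inhibitor A20, at 17214 and 19882 against 27530 and 29153 normalized counts (DESeq2 adjusted p = 0.0161, limma adjusted p = 0.207). Ppp3cb was at 4036 and 4762 against 6149 and 7017 normalized counts (-0.58, limma adjusted p = 0.233), and Hras, Grb2 and Orai1 had log2 fold changes of 0.04, -0.04 and 0.00.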

How the data were processed

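RNA-seq values of 8 mouse libraries were used as deposited. The submitters' processing notes name DESeq2, RSEM, featureCounts, Bowtie2, Trim Galore 0.4.4 and mm10, with no step given. For total OT-I cells the authors deposited 1 value per library with no unit in the header, and its form is FPKM. Beside it, per the file headers, stand the authors' log2 fold changes and adjusted p-values, and the headers do not name the tool. For Ttex cells they deposited a normalized signal, which is gene counts divided by a size factor. Whole reads were recovered from both with GENCODE M21 exon lengths: 98.4 to 98.5% of checked FPKM values and 100% of Ttex values lay within 0.1 read of a whole number, with FPKM divisors 1.12 and 1.25 (KO) and 0.963 and 0.952 (WT) times the recovered totals. Coordinates in RefSeq windows are GRCm38.p6, the same assembly as mm10.

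Limma 3.58.1 (trend, two-sided) was run on log2(value + 1), which understates changes of low genes, for genes averaging 1 FPKM or more, or 10 normalized counts or more. EdgeR 4.0.16 and DESeq2 1.42.0 were run on recovered reads, and edgeR also tested the difference between populations. All were tested on simulated data. Other pseudocounts, filters, scalings, a replicate block and leaving out each library were tried. Values in full are given for called members, for Cd3e, Cd8a, Lck, Zap70 and Lat, for members with a called population difference and for the 3 largest in Ttex cells. The members, lists and rule were chosen with earlier results of these data known, and which promoters to print was decided after motif matches had been seen.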

Additional observations from a re-analysis of the deposited data

Results flagged for a closer look

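The genotype difference of 3 members was not the same in Ttex cells as in total OT-I cells by the edgeR test of the difference on recovered reads. The members called were 5.13% higher and 2.56% lower in Ttex cells. Of all 11225 tested genes 6.89% were called higher and 2.01% lower, so the members were not called more often than genes at large in total. Fyn differed by 1.02 on the log2 scale (SE 0.19, edgeR adjusted p = 0.0106), with both KO-labelled libraries below both WT-labelled libraries in total OT-I cells and overlap in Ttex cells. Nfatc3 differed by 1.22 (SE 0.28, edgeR adjusted p = 0.0239), with the same arrangement of libraries. Dgka differed by -0.71 (SE 0.20, edgeR adjusted p = 0.0487), with both KO-labelled libraries above WT in total OT-I cells and below WT in Ttex cells. The call held in 5, 3 and 2 of the 8 fits that left out 1 library.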

How the results depend on the processing

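In total OT-I cells the count of 12 members called lower became 4 with centring on the median gene, 3 with upper-quartile scaling and 6 with the stricter filter, and it ran from 5 to 10 with 1 library left out. Members called higher, 0 as reported, became 3 with centring and 3 with upper-quartile scaling. Of the other pathway genes, 25 lower became 16 with centring, and 0 higher became 8 with centring and 2 by edgeR. The difference between populations, called for 2 members higher and 1 lower in Ttex cells, ran from 0 to 4 and from 0 to 3 with 1 library left out, and median-of-ratios size factors gave 3 lower. With 1 library left out, the lone library of its group is assumed to vary like the rest. Over all genes in total OT-I cells, 30.4% lower and 2.45% higher became 11.9% and 10.7% with centring. The share of all genes called was not counted with upper-quartile scaling, the stricter filter, median-of-ratios size factors or 1 library left out. For these settings the counts do not tell a change in the members from a change in all genes. The cause of these shifts was not tested. For single named members, 318 alternatives kept the side of the threshold, of which 302 kept the direction and 16, uncalled in both, changed sign at log2 fold changes of at most 0.17 in size. Another 70 kept the direction and lost the call, 6 gained one and 0 reversed a call.

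Replicate numbers are shared between the genotypes, but nothing in the labels ties them, and the correlation of same-numbered deviations over genes was 0.299 in total OT-I cells and 0.139 in Ttex cells with 2 pairs each. With the replicate block 17 members (44.7%) were lower and 0 higher in total OT-I cells, where 36.7% and 3.41% of genes were. In Ttex cells the block gave 5 lower (Lcp2, Plcg1, Vav1, Cd6 and Cblb) and 1 higher (Cd3d), where 3.11% and 3.61% of genes were, and 6 higher and 5 lower for the difference between populations, where 15.8% and 7.16% of genes were. Of the other pathway genes in Ttex cells it gave 6 lower and 0 higher.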
